A study of Mus musculus with 4 samples.

Results

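Insulin receptor substrates and the Akt pathway were examined here as 8 genes: Irs1, Irs2, Akt1, Akt2, Gsk3b, Rptor, Rictor and Mtor, of 21631 protein-coding mouse genes on chromosomes 1 to 19 and X. Each was looked up by name in 2 deposited lists of regions bound by DNMT3B, an enzyme that adds new methyl groups to cytosines of CG dinucleotides. The study used chromatin immunoprecipitation and sequencing (ChIP-seq) on lung metastases of 4T1, a mouse mammary tumour cell line grown in BALB/c mice. It held 2 libraries made with a DNMT3B antibody and 2 input libraries made without antibody, each pair with the lung labels 3 and 5, and no other genotype or treatment is labelled. Whether the lung labels stand for separate mice, and whether host lung cells were removed, is not stated in the sources used here. Both lists hold positions only and no read counts, so depth is unknown, and neither a replicate spread nor a test between libraries could be computed. Cell type markers could not be checked for the same reason.

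The insulin and IGF1 receptors phosphorylate the docking proteins IRS1 and IRS2, which recruit PI3-kinase to the membrane. The lipid it makes brings Akt kinases to the membrane, where they are activated, and Akt in turn inhibits the kinase GSK3B and releases the brake on mTOR complex 1, of which Raptor (Rptor) is the scaffold. Rictor is the scaffold of mTOR complex 2, which phosphorylates Akt, and Mtor encodes the kinase of both complexes. DNMT3B is known both at CG-rich gene starts and along transcribed gene bodies, where it binds a histone mark left by elongating polymerase.

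Of the 8 genes, 3 carried both a narrow region and a broad island (Irs1, Irs2 and Rptor), Gsk3b carried a narrow region alone, Akt2 and Mtor carried islands alone, and Akt1 and Rictor were named in neither list. The name of the SICER list refers to a top selection whose rule is not stated, so a gene absent from it may still carry an island that was left out. Narrow regions come from the program MACS, broad islands from the program SICER. A MACS region counted for a gene where the list words it as overlapping the gene or at most 5 kb upstream. A SICER island counted for its paired gene where the middle of the island fell in the body or at most 5 kb before the start. By these rules 4 of the 8 genes (50%) had a MACS region, beside 5.98% of all protein-coding genes. With overlap of the gene alone it was 3 of 8, beside 5.1%. For SICER islands the count was 5 of 8 (62.5%), beside 13.4%, and for both it was 3 of 8 (37.5%), beside 2.01%. The 8 genes were picked with results of these lists already known, so their shares describe them and do not support an excess.

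**Figure D1:**
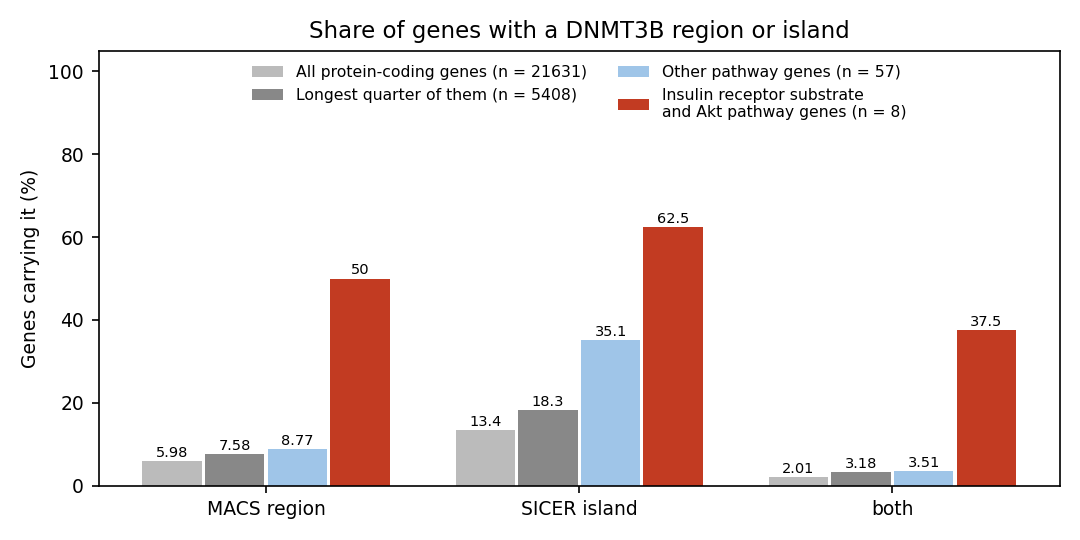
Bars give the percentage of genes with a MACS region, a SICER island or both, for all 21631 protein-coding genes, the 5408 longest of them, 57 other genes of the pathway and the 8 genes described here. The 8 genes, picked with earlier results known, stand at 50%, 62.5% and 37.5%, and no error bar applies because the lists hold no replicates.

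Gene length and chromosome differ between these genes, and both go with how often a gene is listed. When protein-coding genes were ranked by length and cut into 4 equal classes, 6 of the 8 genes fell in the longest class (44920 bp and over), where 7.58% of genes had a MACS region and 18.3% an island. Irs2 and Akt1 fell in the class below it, at 6.95% and 17.3%. The shortest class stood at 3.22% and 5.44%. On chromosome 16, which holds Gsk3b, 34.9% of protein-coding genes had a MACS region. That share was 10.6% on chromosome 11 (Rptor), 9.88% on chromosome 8 (Irs2), 4.4% on chromosome 1 (Irs1) and 0.936% on chromosome 7 (Akt2). Islands were most frequent among these chromosomes on chromosome 8, at 27.8% of genes, and least frequent on chromosome 7, at 6.4%. The part of length and chromosome in the counts of the 8 genes was not tested.

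Positions below are as deposited. The submitters' processing notes name the build mm10, but the gene starts in the SICER list lay -3.42 kb (Irs1), -0.499 kb (Irs2), 799 kb (Akt2), -139 kb (Rptor) and -626 kb (Mtor) from those in RefSeq's annotation of GRCm38, the same assembly as mm10. The build of the positions is therefore not known, and distances are measured within the lists.

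Irs1, which encodes a main docking protein of the insulin receptor, had 4 MACS regions packed around its start, all inside 1 island that spans that start. The SICER list places Irs1 on the minus strand of chromosome 1 from 82229679 to 82288014, a body of 58335 bp. The island ran from 82283200 to 82289799, that is from -1785 bp (upstream of the start) to 4814 bp inside the gene, and so covered 8.25% of the body, all at its 5′ end. The regions lay at 414 to 814 bp and at 114 to 214 bp inside the gene, and at -186 to -86 bp and -386 to -286 bp before it. These positions are rounded to 100 bp in the list, and the deposited distances of the regions upstream are 85 and 285 bp. Regions thus stood on both sides of the gene start, and the widest, 82287200 to 82287600, was inside the gene. No MACS region lay in the remainder of the body.

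Few genes had as many narrow regions as Irs1. Of all protein-coding genes, 11 (0.0509%) had at least 4 MACS regions, and the largest number was 9. Regions were told apart by listed position, which is rounded to 100 bp at Irs1 and to as much as 1000 bp elsewhere. Regions close together may merge where rounding is coarser, so such counts depend on position along the chromosome. Among genes with 4 MACS regions all in islands and 1 island, as for Irs1, there was 1 other, Cdk6, a kinase gene of cell cycle entry, whose island was 3.6 kb wide and ran from -2.91 kb to 0.688 kb of its start. Few listed genes lay near Irs1. None of its 6 nearest protein-coding neighbours, 3 on each side in RefSeq order, had a region or an island. Over chromosome 1, 4.4% of genes had a MACS region and 15.1% an island. In the SICER list the nearest genes were Slc4a3, 6670 kb away, and Sp110, 5190 kb away on the other side. In the 11917468 bp between these genes, which hold 41 protein-coding genes in RefSeq, the island at Irs1 was the single one listed. The list holds no island farther than 10 kb from a gene, so islands far from genes could not appear there.

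Irs2, the paralogue best known for insulin signalling in liver and pancreatic islets, had the same arrangement at its start, with a wider island and fewer, wider regions. The SICER list places it on the minus strand of chromosome 8 from 10986963 to 11008430, a body of 21467 bp. Its island from 11001000 to 11011599 was 10.6 kb wide and ran from -3169 bp to 7430 bp of the start, covering 34.6% of the body. Of its MACS regions, that from 11007400 to 11008400 lay 30 to 1030 bp inside the gene and that from 11007000 to 11007200 lay 1230 to 1430 bp inside. The wider region also overlapped 9530052E02Rik, a transcript on the opposite strand, which the list gives as its nearest feature. Every assigned MACS region of Irs2 was within the first 1430 bp of the gene, and none lay upstream, whereas Irs1 had regions on either side of its start.

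Beyond the 3′ end of Irs2 lay a further island, from 10975000 to 10980399, with 1 MACS region in it, from 10978500 to 10978800. The list gives this region as 8164 bp downstream of Irs2, so it was not counted for the gene. At least 2 MACS regions were found at 1.04% of protein-coding genes, a share that also depends on the rounding of positions. Of these, 17 others shared with Irs2 a count of 2 regions, all in islands, and 1 island. The closest in island width were Pnpla6 (12.2 kb), Socs1, an inhibitor of cytokine and insulin receptor signalling (9 kb), and Snn (12.4 kb). The islands of Socs1 and Snn spanned the gene start, from -3.57 to 5.43 kb and from -5.59 to 6.81 kb, and that of Pnpla6 lay 14.8 to 27 kb inside the gene. Unlike Irs1, Irs2 had neighbours in the lists: of its 6 nearest protein-coding genes, 4 had an island and 3 a MACS region. Over chromosome 8, 27.8% of genes had an island and 9.88% a MACS region. The listed neighbours included the collagen IV genes Col4a1 and Col4a2 and the GTPase gene Rab20. In the SICER list the nearest genes were 3930402G23Rik, 58.5 kb away with 1 island, and Col4a1, 190 kb away on the other side with 6 islands.

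**Figure D2:**
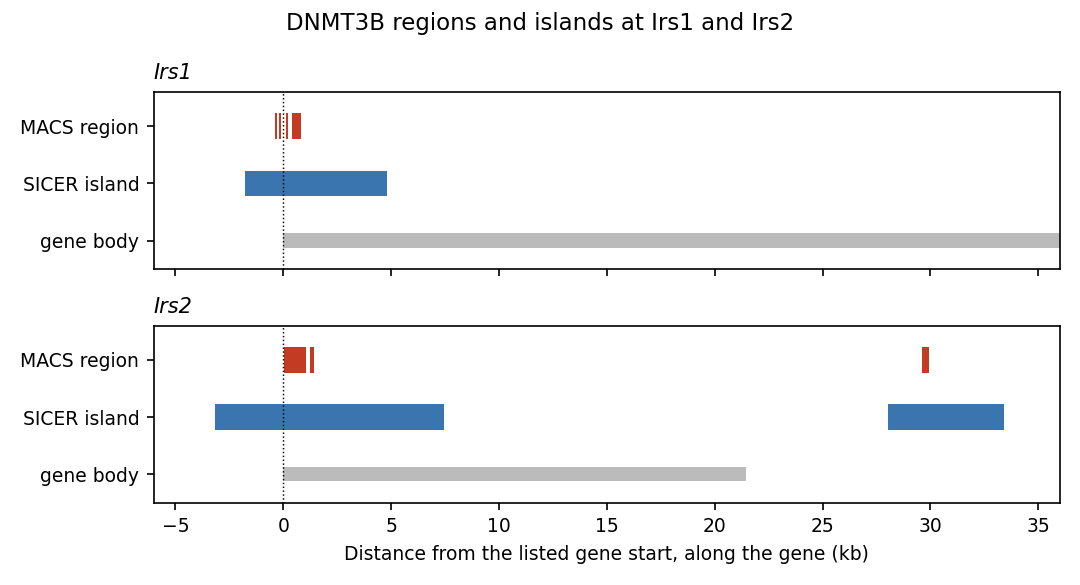
Distance along the gene from the start given in the SICER list, in kb, for Irs1 and Irs2, with the gene body in grey (that of Irs1 goes on to 58.3 kb), SICER islands in blue and MACS regions in red. Both genes have an island across the start (dotted line) with MACS regions close to it, and Irs2 has a second island beyond its 3′ end.

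The promoter windows of Irs1 and Irs2 are shown because MACS regions lay at the starts of both genes and DNMT3B acts on CG. They run from 250 bases before the RefSeq gene start to 50 bases after it, 5′ to 3′ on the minus strand of GRCm38.p6, at chr1:82291390-82291689 and chr8:11008880-11009179. That is not the build of the deposited positions. Capitals mark each CG.
Irs1: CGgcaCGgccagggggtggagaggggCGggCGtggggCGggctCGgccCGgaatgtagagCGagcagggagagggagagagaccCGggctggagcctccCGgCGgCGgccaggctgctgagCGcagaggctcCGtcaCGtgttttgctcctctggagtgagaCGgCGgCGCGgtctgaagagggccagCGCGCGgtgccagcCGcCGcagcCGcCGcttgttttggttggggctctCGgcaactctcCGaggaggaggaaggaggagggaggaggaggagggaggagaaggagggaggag
Irs2: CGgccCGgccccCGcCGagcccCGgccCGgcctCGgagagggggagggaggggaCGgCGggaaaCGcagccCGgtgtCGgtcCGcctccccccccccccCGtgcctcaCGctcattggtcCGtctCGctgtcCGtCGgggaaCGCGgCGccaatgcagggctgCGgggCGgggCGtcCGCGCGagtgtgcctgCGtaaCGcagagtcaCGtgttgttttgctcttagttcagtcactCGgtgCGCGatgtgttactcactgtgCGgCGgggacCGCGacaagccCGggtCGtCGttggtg
The Irs1 window held 28 CG and the Irs2 window 41, more than 81% and 95.5% of the 21045 windows of protein-coding genes, whose median was 13 (quartiles 4 and 25). The ratio of observed to expected CG was 0.827 and 1.06, beside a median of 0.574. The longest letter runs that both windows hold in the same orientation were a pair of 10 bases. GTCACGTGTT began at -117 in Irs1 (negative positions count bases before the start) and at -46 in Irs2, and TGTTTTGCTC began at -111 and -37. On either strand, the first was in 0.0998% of windows and the second in 0.0665%. The first run contains the palindrome CACGTG, an E-box with a CG at its centre, present in 7.91% of windows. The letters TGTTTTG of the second, which resemble sites bound by FoxO factors, were in 5.26%. These runs overlap in both windows. Both motifs together, searched after the shared runs were seen, were in 0.38% of windows and, of the 8 genes, in those of Irs1 and Irs2. These are matches of letters and show no binding. RefSeq and the SICER list give Irs1 the same length, 58335 bp. If both starts are the same base, the run at -117 falls in the MACS region at -186 to -86 bp. For Irs2 they differ (24249 and 21467 bp), so where its window lies against the listed start is not known.

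Rptor, the scaffold of mTOR complex 1 that selects its substrates, had a different layout, with islands strung along a long body and a lone MACS region at the start, outside them. Its body of 296.597 kb lies on the plus strand of chromosome 11 from 119464308 to 119760905. The list pairs 13 islands with it, of 2.6 to 25.2 kb with a median of 7.4 kb, beside a median of 4800 bp for all 8242 islands. Only 13 protein-coding genes (0.0601%) had at least 13 islands, and the largest number was 25. The first Rptor island ended upstream, at -1.51 kb, and the next began 17.3 kb inside, so the start itself was not covered. The other 12 lay in the body, 6 with their midpoint in its first part up to 50% of the length and 6 beyond. The widest ran from 119535200 to 119560399, 70.9 to 96.1 kb from the start, and 83 of all islands were as wide or wider. The longest stretch between neighbouring Rptor islands was 49 kb.

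Islands paired with Rptor covered 36.7% of its body. A further 3 islands within or running into the body were paired with other transcripts, A430071A18Rik and Chmp6, and with them 47.4% was covered. Among 141 protein-coding genes of at least 200 kb with an island, the median cover by a gene's own islands was 2.32%, and 7 genes, Rptor among them, reached 36.7% or more. Per 100 kb of body, Rptor had 4.38 islands, beside a median of 0.481 for these long genes, and 12 of them had as many or more, Rptor included. None of the 13 islands held a MACS region. The MACS region of Rptor was listed at 119464000, a position rounded to 1000 bp, with a deposited distance of 218 bp upstream of the gene, and as listed it lay 1201 bp from the nearest island. Of the 6 protein-coding genes nearest to Rptor, 4 had a MACS region and 4 an island. Over chromosome 11, 10.6% of genes had a MACS region and 23.1% an island.

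**Figure D3:**
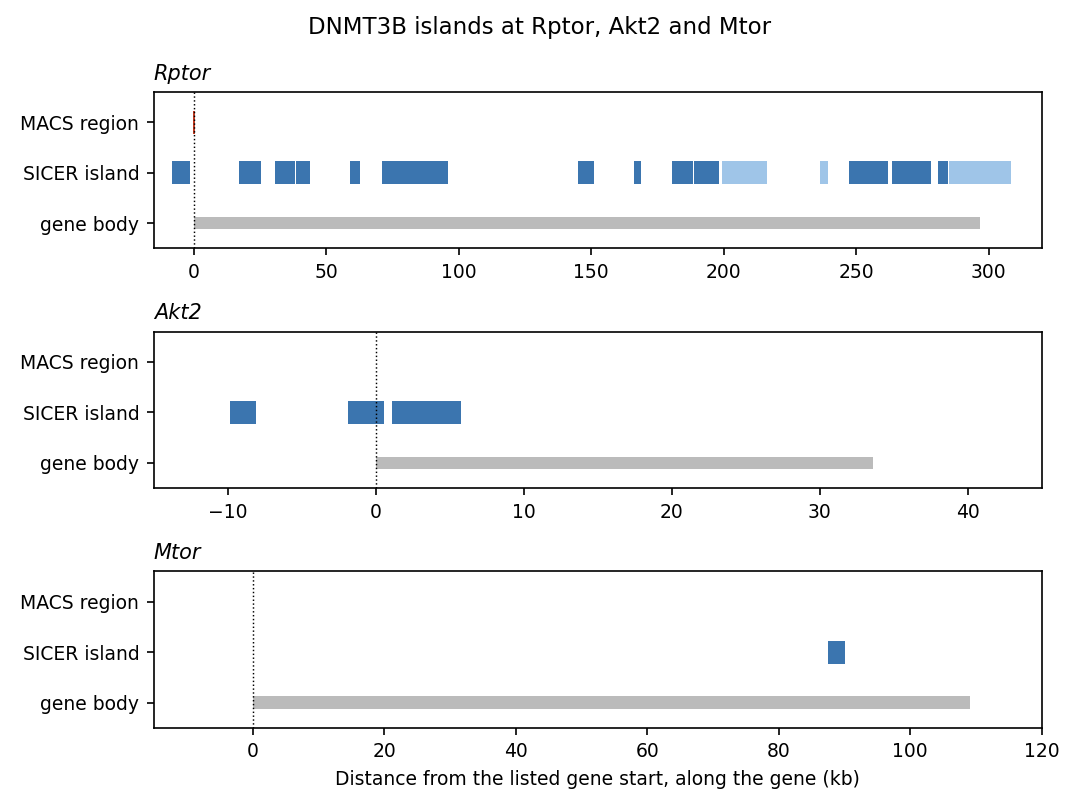
Distance along the gene from the start given in the SICER list, in kb and on a separate scale for each panel, for Rptor, Akt2 and Mtor, with the gene body in grey, islands paired with the gene in dark blue, islands paired with another transcript in light blue and the MACS region in red. Rptor has 13 islands of its own along 296.597 kb and none over its start, Akt2 has islands at its listed start, and Mtor has 1 island far inside the gene.

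Mtor, the kinase that Raptor and Rictor assemble around, had 1 island and no MACS region. The island was 2.6 kb wide, on chromosome 4 from 147910200 to 147912799, 87.5 to 90.1 kb from the start and 81.4% of the way along a body of 109.104 kb. It covered 2.38% of the body, less than in most genes with an island, of which 8.34% had a smaller cover. Those genes were not matched to Mtor in length. Among the genes of at least 200 kb with an island, all longer than Mtor, the median cover was 2.32%. Cover by own islands thus stood at 2.38% of the body in the kinase gene and 36.7% in the Raptor gene. Rictor, the scaffold gene of the other complex, was not named in either list, and the SICER list gives no position for it. Of its 6 nearest protein-coding genes, the cytokine receptor genes Osmr and Lifr had MACS regions and none had an island. Over chromosome 15, 5.28% of genes had a MACS region and 15.9% an island.

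The Akt kinases also differed from each other in the lists. Akt2, the isoform most tied to insulin-stimulated glucose uptake, had 2 islands at its listed start and no MACS region. It lies on the plus strand of chromosome 7 from 28390878 to 28424472. The island from 28389000 to 28391399 spanned the start, from -1.88 to 0.521 kb, and that from 28392000 to 28396599 followed it, at 1.12 to 5.72 kb. One more island paired with Akt2, from 28381000 to 28382799, lay -9.88 to -8.08 kb upstream of the listed start and was not counted. RefSeq gives Akt2 a length of 49275 bp, beside 33594 bp in the SICER list, and several start windows. Whether the listed start is the first of these is not known, so these islands may lie farther along the gene. Of the 6 nearest protein-coding genes, none had an island and 1, 2310022A10Rik, had a MACS region. Over chromosome 7, 6.4% of genes had an island and 0.936% a MACS region.

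Akt1, the most widely expressed Akt isoform, was not named in either list, but islands lay in its surroundings. Each island is paired with a single gene, so an unnamed gene may still lie under one. In RefSeq order Akt1 sits between Siva1 and Zbtb42, and no other protein-coding gene does. The SICER list gives 29.7 kb between those genes, from 113887363 to 113917050 on chromosome 12, and RefSeq gives Akt1 a length of 21064 bp. In that stretch lay an island of 16 kb paired with Siva1, from 113888800 to 113904799, and one of 6 kb paired with Zbtb42, from 113906000 to 113911999. The lists give no position for Akt1. If its full RefSeq length lies between Siva1 and Zbtb42 as listed, both islands overlap it, because the stretch cannot hold that length clear of either. How much of the gene they cover cannot be told. Of the 6 nearest protein-coding genes, 4 had an island and none a MACS region. Over chromosome 12, 14.7% of genes had an island and 5.15% a MACS region.

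Gsk3b, whose kinase is switched off by Akt and acts on glycogen synthase and beta-catenin, had 1 MACS region, on chromosome 16 from 38089600 to 38089900, which the list words as contained within the gene. It lay 215700 bp from the nearest island. The SICER list does not hold Gsk3b, so its distance from the gene start could not be computed. Of the 8 MACS regions assigned to the 8 genes, 6 (75%) shared at least 1 bp with an island, beside 30.6% of all 1705 regions. All 6 belonged to Irs1 and Irs2, each in the single island at the start of its gene, and those of Gsk3b and Rptor lay outside. The 1705 regions did not have to lie in a gene or at most 5 kb upstream, as the 8 did. The shares therefore have unlike bases.

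CG counts of the promoter windows overlapped between those of the 8 genes with a MACS region and those without. RefSeq windows were at hand for 1017 of the 1294 protein-coding genes with a MACS region. These windows held a median of 23 CG (quartiles 16 and 31), beside 12 (4 and 24) for the windows of genes without a region. The sequences of Gsk3b and Rptor, which had a region near or inside the gene, and of Rictor, which had none, are shown to compare CG content. They are RefSeq windows on the plus strand of GRCm38.p6, at chr16:38088751-38089050, chr11:119602655-119602954 and chr15:6708131-6708430, with each CG in capitals.
Gsk3b: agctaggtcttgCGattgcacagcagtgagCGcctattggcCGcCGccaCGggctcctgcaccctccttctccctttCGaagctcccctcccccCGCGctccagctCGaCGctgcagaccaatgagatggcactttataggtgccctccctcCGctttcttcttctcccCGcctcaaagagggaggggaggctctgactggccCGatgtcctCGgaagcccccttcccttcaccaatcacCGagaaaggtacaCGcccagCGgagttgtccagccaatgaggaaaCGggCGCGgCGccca
Rptor: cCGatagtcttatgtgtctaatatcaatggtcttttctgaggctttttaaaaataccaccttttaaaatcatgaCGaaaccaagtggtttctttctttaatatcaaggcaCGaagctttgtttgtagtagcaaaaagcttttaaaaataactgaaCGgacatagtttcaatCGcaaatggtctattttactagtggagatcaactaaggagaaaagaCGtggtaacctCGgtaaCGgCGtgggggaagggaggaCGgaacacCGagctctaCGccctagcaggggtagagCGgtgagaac
Rictor: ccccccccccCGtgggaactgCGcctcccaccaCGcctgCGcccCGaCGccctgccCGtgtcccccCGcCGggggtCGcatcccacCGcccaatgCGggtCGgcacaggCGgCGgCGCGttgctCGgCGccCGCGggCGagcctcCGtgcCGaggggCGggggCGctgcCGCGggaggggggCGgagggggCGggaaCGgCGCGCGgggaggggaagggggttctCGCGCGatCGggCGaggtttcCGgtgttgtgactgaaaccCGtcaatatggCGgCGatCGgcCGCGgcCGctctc
Rictor had the most CG of the windows of the 8 genes, 47, more than 98.1% of all windows, and yet no listed region. Rptor had 13, the median of all windows, and Gsk3b and Mtor had 21 each. RefSeq gives Akt1 2 start windows, with 8 and 42 CG, and Akt2 has 4, with 0 to 12.

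**Figure D4:**
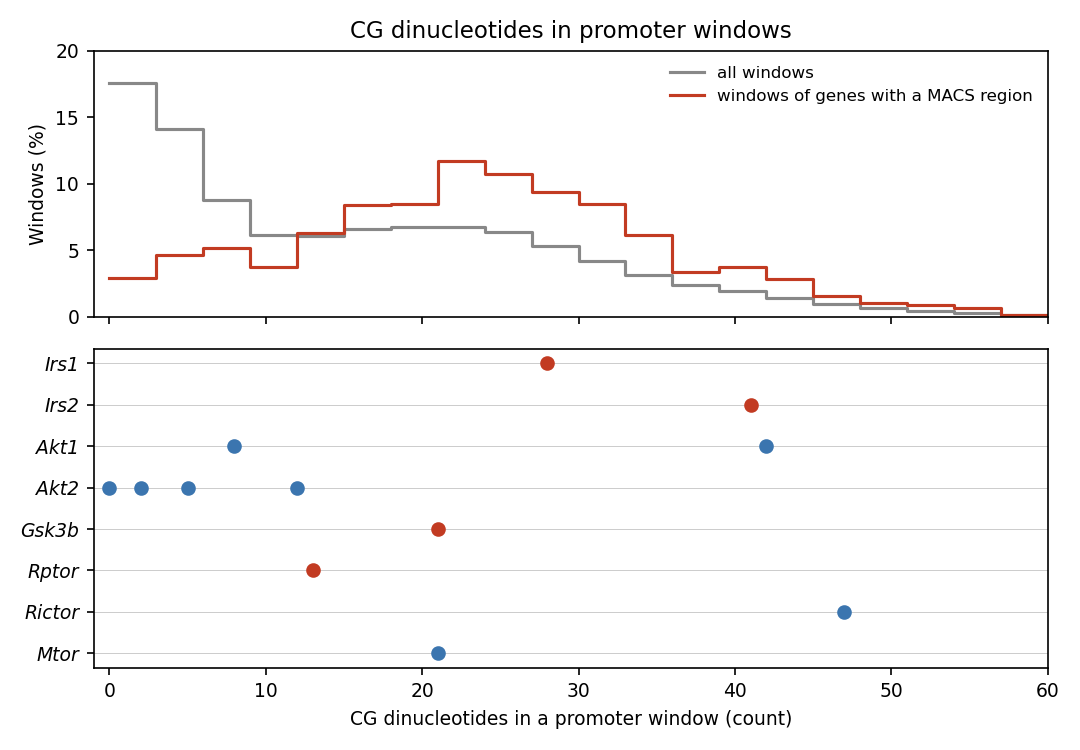
The upper panel gives the percentage of 300-base promoter windows by their count of CG dinucleotides, for all windows of protein-coding genes (grey) and those of genes with a MACS region (red). The lower panel gives each window of the 8 genes, red where the gene had a MACS region and blue where it had none: Rictor, without a region, stands highest at 47, and Rptor, with one, at 13.

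Other genes of the pathway were taken from a list of 65 genes grouped by role, of which 57 are not among the 8. Of the 57, 5 (8.77%) had a MACS region, beside 5.98% of all protein-coding genes, and 20 (35.1%) had an island, beside 13.4%. Both kinds were found at 2 (3.51%, Insr and Tfeb), beside 2.01%, and 34 had neither. The shares with a MACS region and with both, which rest on 5 and 2 genes, are near those of all genes. The list was drawn up with earlier results of these data known, so its shares, that of islands included, describe it and do not support an excess. In 10 of the 20 an island came within 2 kb of the listed gene start, as it did in 4 of the 5 genes with an island described above. Of the 2900 protein-coding genes with an island, 1411 (48.7%) had one that near to the start, so the 10 of 20 lay near the background. Over all protein-coding genes, with or without an island by the main rule, 6.89% had one there.

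Among receptors and adaptors, 1 more gene had the layout of Irs1 and Irs2. Insr, the insulin receptor gene, had a MACS region on chromosome 8 from 3279070 to 3279550, inside an island that spanned the gene start from -1.18 to 4.82 kb. Igf1r had an island of 2.8 kb that began 108 kb inside the gene, and Sh2b2, an adaptor of the insulin receptor, had 2 islands, both inside the gene. The other 7 of the 12 receptors and adaptors, Insrr, Irs4, Shc1, Gab1, Grb10, Grb14 and Sh2b1, had neither. Insr, Irs1 and Irs2 were thus the 3 of the 12 genes (25%) with both kinds, beside 2.01% of all protein-coding genes. Irs1 and Irs2 were picked with results of these lists known. Without them, 1 of the other 10 genes (10%), Insr, had both kinds. The share of all genes with a MACS region in an island over the start was not computed.

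Of 7 PI3-kinase subunit genes, 1 (14.3%) had an island, beside 13.4% of all protein-coding genes, and none had a MACS region, beside 5.98%. That gene was Pik3cd, the catalytic subunit typical of leukocytes, with an island 7.63 to 10 kb inside the gene. These shares are near those of all genes. Of 7 genes of phosphatases, most of which oppose the pathway, 3 (42.9%) had an island and none a MACS region. The shares of all protein-coding genes are the same 13.4% and 5.98%, and none with a MACS region among 7 is near the latter. Inpp5d (the lipid phosphatase SHIP1) had 3 islands, the first across its start from -1.09 to 4.71 kb. Inppl1 (SHIP2) had 2 islands, and Ptpn1, a phosphatase that acts on the insulin receptor, had 2, the wider of 13.8 kb.

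In the group labelled Akt substrates, which need not hold direct substrates alone, 2 of the 12 genes beside Gsk3b had a MACS region. That is 16.7%, beside 5.98% of all protein-coding genes. An island was found at 3 (25%), all different genes, beside 13.4% of all protein-coding genes. Cdkn1b, a cell cycle inhibitor, and Mdm2, the ligase that degrades p53, had MACS regions 418 and 185 bp upstream by the deposited distance, both outside islands. Foxo3, a transcription factor kept out of the nucleus by Akt, had 3 islands, one across its start from -2.25 to 2.55 kb. Tbc1d1 and Tsc1 had 1 island each, inside the gene.

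Of the 8 further genes of the mTOR complexes, 3 had an island and none a MACS region. Mlst8, a subunit of both complexes, had 2 islands at its start. Telo2, a chaperone factor for kinases of this class, had 1 across its start from -1.49 to 5.71 kb. Deptor, an mTOR inhibitor, had an island of 24 kb that lay 16.8 to 40.8 kb inside the gene.

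The group labelled mTOR complex 1 substrates and feedback had the highest share with an island of the roles in the list, 7 of 11 genes (63.6%). Over all protein-coding genes the share with an island was 13.4%. In the group, 2 genes (18.2%) had a MACS region, beside 5.98% of all protein-coding genes. These differences between roles were not tested. The label is loose, since the 7 include Ddit4 and Sgk1, which are not substrates of that complex. Ulk1, the autophagy kinase that mTOR complex 1 inhibits, had 3 islands, of 3.8, 12.4 and 8 kb, the last across its start. Srebf1, a lipid synthesis factor, had an island of 9 kb from -3.29 to 5.71 kb of its start. Ddit4, an inhibitor of mTOR complex 1 made under stress, and Sgk1, a kinase activated by mTOR complex 2, had islands across their starts of 4.2 and 1 kb. Eif4ebp1 and Lpin1 had 1 island each, inside the gene. Tfeb, a lysosomal transcription factor, had 2 islands and, outside them, a MACS region in an intron. Rps6kb1, the S6 kinase gene, had a MACS region contained within the gene and outside islands.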

How the data were processed

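DNMT3B ChIP and input libraries of 4T1 lung metastases (2 each) entered 2 deposited lists. Per the submitters' processing notes, the tools were Bowtie2 (version given as 2.10), MACS (1.4) and SICER, and whether libraries were pooled is not stated in the sources used here. The name of the MACS list may refer to another MACS version and to a p cutoff, and neither is settled by these sources. The authors' MACS list held 4304 lines, reduced to 1705 regions of distinct listed position. Its positions have at most 6 significant digits (steps up to 1000 bp). The SICER list held 8242 islands on a 200 bp grid, each paired with 1 gene within 10 kb. Neither list, per the file headers, carries a score.

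Names were matched to RefSeq (GRCm38.p6) by transcript, symbol or unique synonym, for 1703 regions and 8238 islands. Promoter sequences are RefSeq's, matched by symbol for all 8 genes. Assignment was tested on simulated lists. Python 3.11.15, pandas 2.3.3 and matplotlib 3.10.9 were used. No test was run. The 8 genes, the pathway list and the rules were chosen with earlier results of these data known. Named genes were the 8 genes, pathway genes with a region or island, the nearest listed genes of Irs1 and Irs2, and up to 3 genes with the same counts as each of these, closest in island width. Neighbours by RefSeq order, genes of 200 kb or more, and shared promoter runs were added after seeing the data. One item is not reported here. Alternatives are in the closing section.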

Additional observations from a re-analysis of the deposited data

How the results depend on the processing

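Counts of genes moved by up to 1.5 times with the assignment rules. With MACS regions required to overlap the gene, 3 of the 8 genes had one in place of 4, because Rptor was lost, and 2 had both kinds in place of 3. Overlap alone gave 5.1% of all protein-coding genes a region. With islands required within 2 kb of the listed gene start, 4 of the 8 genes had one in place of 5, because Mtor was lost. A reach of 20 kb, counting every line, any paired island (17.4% of all protein-coding genes) and 1 bp in the body left the counts for the 8 genes at their values. In the pathway list of 65, overlap alone gave 6 genes with a MACS region in place of 9, and any paired island gave 30 genes in place of 25. The 6 regions inside islands stayed 6 when required to lie wholly inside or widened by their rounding step. All 16 alternatives stayed within 1.5 times the reported count, and the falls from 9 to 6 and from 3 to 2 were at that limit. No stricter threshold could be set because the lists carry no score. No paired analysis was possible because neither list splits its positions by library, and leaving out a library was not run on that account.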

Other observations

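Many MACS regions are repeated on identical lines, and what the repeats stand for is not stated in the sources used here. Of 1705 distinct regions, 863 stood on 1 line, the upper quartile was 3 lines and the maximum was 55. At Irs1 the widest region stood on 9 lines (58 of all regions had at least 9), and the others on 3, 1 and 5. At Irs2 the assigned regions stood on 8 lines each and the region beyond the 3′ end on 6. The region of Gsk3b stood on 6 lines, that of Insr on 8 and that of Rptor on 1.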
